A study of Mus musculus with 35 samples.

Results

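Mouse induced pluripotent stem (iPS) clones that had been made from OP cells with 3 reprogramming factors were compared with clones made from the same cell source with 4 factors. The members were chosen by their sample titles alone: 5 clones induced with 3 factors (3F-OP-iPS #1 to #5) and 5 induced with 4 factors (4F-OP-iPS #1 to #5), which are 10 of the 35 samples of the series. Per the study's methods, OP cells are bone marrow cells without CD45, Ter119, PDGFRα and Sca-1 on their surface, sorted from crushed femurs and tibias of 6-week-old mice that carry a Nanog-GFP-Puro reporter. All 10 clones had received pMX retroviruses for Oct3/4, Sox2 and Klf4 together with a DsRed virus that reports retroviral expression, and the 4F clones had also received c-Myc. The clones were grown on SNL feeder cells, which are mitotically inactivated fibroblasts, with LIF. Puromycin was added 3 weeks after infection to 4F cultures and 4 weeks after infection to 3F cultures, so the time to selection and the factor set cannot be told apart. Each sample is 1 picked GFP-positive, DsRed-negative clone on 1 single-colour Agilent array, so n counts clones. The sources used here do not say whether clones of a group came from separate infections, and p-values measure spread between clones only. The p-values and SEs of limma use 1 spread per probe, shared by these 10 clones, the clones of other cell sources and both ES arrays. Exact permutation p-values use the 10 clones alone. Values are log2 intensities relative to the 75th percentile of the same array. They compare samples for 1 probe and do not rank genes.

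c-Myc is a transcription factor that binds CACGTG sequences, called E-boxes, and promotes cell growth, metabolism and division. It is used in reprogramming because it raises the number of colonies, but it is an oncogene and can be left out. Fully reprogrammed cells silence the retroviral factors and switch on their own pluripotency network, in which Oct4 (encoded by Pou5f1), Sox2, Nanog and Esrrb maintain each other. Mouse ES cells also express some genes of germ cells and, in a small part of the culture, genes of the embryo at the two-cell stage.

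The factor left out was examined first. c-Myc was read by 3 probes on chromosome 15 (mm7 coordinates as in the array files). The coding-sequence and stop-codon probes are shown because they decide whether a signal can come from the virus as well as from the clone's own gene. The capitals mark the stop codon, which starts at base 45 of its probe, and the coding probe lies 492 bases before the stop-codon probe.
c-Myc coding probe, chr15:62063665-62063724: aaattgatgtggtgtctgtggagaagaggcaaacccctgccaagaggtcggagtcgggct
c-Myc stop-codon probe, chr15:62064157-62064216: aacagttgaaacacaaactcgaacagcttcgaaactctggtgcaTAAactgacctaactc
The third probe (chr15:62064256-62064316) lies downstream of the stop codon. The coding sequence is what a retroviral factor carries, so the coding probe can read virus and own gene alike. How much of the sequence after the stop codon the virus carried is not given in the sources used here.

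The coding probe did not separate the groups. It read 1.66, -2.91, 0.59, -4.15 and -3.60 in 3F-OP-iPS #1 to #5. It read 3.40, -2.53, 2.58, -1.48 and 1.55 in 4F-OP-iPS #1 to #5. The clones labelled 3F-OP-iPS #1 and #3 were above 4F-OP-iPS #2 and #4, and above both ES arrays (-2.20 and -2.26) and the single array of primary OP cells (-3.48). These high readings stand beside the label of clones made without c-Myc. Whether they come from a virus or from the clone's own gene was not tested. Clone 4F-OP-iPS #2 was as low as ES cells. The groups overlapped, and the difference of -2.38 ± 0.97 (log2, 3F minus 4F, SE) did not pass the test (adjusted p = 0.121 by limma, exact permutation p = 0.190, two-sided, 5 against 5).

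The stop-codon probe ordered the extremes in the same way, with 3.41 and 2.37 in the clones labelled 3F-OP-iPS #1 and #3 and -1.43 to -0.69 in the other 3F clones. Its difference was -1.99 ± 0.84 (adjusted p = 0.135). The probe beyond the stop codon was flat, between -0.57 and 0.48 in 3F clones and between -0.91 and 0.61 in 4F clones. Its difference was 0.13 ± 0.32 (adjusted p = 0.852). Without the clones labelled 3F-OP-iPS #1 and #3, the differences were -4.26 at the coding probe and -3.54 at the stop-codon probe, given with no test because these clones were left out for their high readings of c-Myc. The results below are given for the groups as labelled, with counts without these 2 clones beside those that moved most. Because of these clones, "3F" and "4F" name the label.

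**Figure D1:**
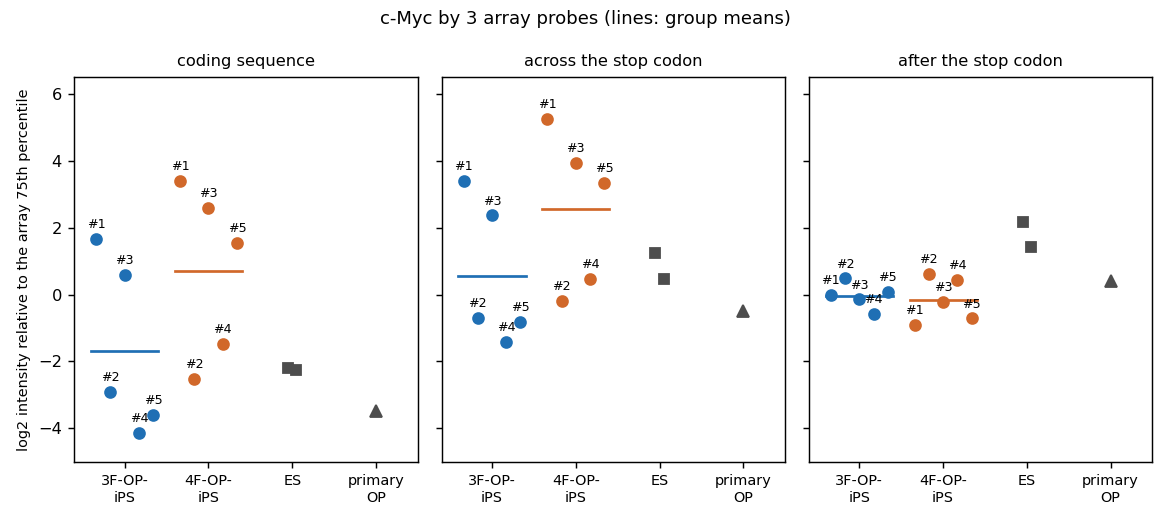
Log2 intensity relative to the array 75th percentile (y axis) of 3 c-Myc probes in 3F-OP-iPS and 4F-OP-iPS clones (circles, clone numbers above), both ES arrays (squares) and 1 array of primary OP cells (triangle); lines are group means of 5 clones. In the coding panel the clones labelled 3F-OP-iPS #1 and #3, at 1.66 and 0.59, sit above 4F-OP-iPS #2 and #4, at -2.53 and -1.48, while the probe after the stop codon does not separate the groups.

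The other 3 factors, which both groups received, did not pass the test. Pou5f1 read 2.71 to 3.47 in 3F clones and -1.96 to 4.57 in 4F clones, with a difference of 0.93 ± 0.75 (adjusted p = 0.48). Klf4 read 4.84 to 5.81 and 3.11 to 6.38, with a difference of 0.74 ± 0.46 (adjusted p = 0.335). Sox2 is described with the pluripotency genes.

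Libraries that stand apart were looked for before the calls. Between 63.1% and 65.1% of gene probes were well above background in 3F clones and between 57.8% and 65.7% in 4F clones, lowest in 4F-OP-iPS #2. Clones 4F-OP-iPS #1 and #3 were not well above background for Sox2 and Nanog, and #2 was low for both. The arrays of the 3F clones lay on 2 slides and those of the 4F clones on 2 others, with 0 slides shared, so slide and factor set cannot be told apart. All 10 were scanned in 1 session. Both ES arrays and the primary OP array lay on other slides and were scanned in other sessions, so every comparison of clones with them also crosses slide and session. The 2 ES arrays also differed from each other in slide and session, though they form 1 group in the fit.

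Most calls were higher in 3F clones. Of 27623 probes tested, 1246 (4.51%) passed an adjusted p of 0.05 with at least a 2-fold difference. Of these, 1087 (3.94% of the tested probes) were higher and 159 (0.576%) lower in 3F, so 87.2% of the calls were higher. They represent 974 and 147 gene symbols. By adjusted p alone, 1335 probes (4.83%) were higher and 902 (3.27%) lower. Quantile normalization gave 728 higher and 355 lower, 67.2% higher. With slide as a random block 168 probes were called, and 64 in such a fit of the 10 clones alone. Of the 1087 probes called higher, 503 were above background on all 10 clones, 501 in some but not all 4F clones and 82 in no 4F clone. These classes do not cover every called probe.

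Overlap between the groups was common among the calls. The values of 637 probes (2.31%) in all 5 3F clones lay above those in all 5 4F clones, and those of 745 (2.70%) lay below. Among these, 342 were called higher and 68 called lower. Without 4F-OP-iPS #1, #2 and #3, which leaves 2 clones in that group, 64 probes were called, 49 of them higher (0.177%), and 58 of the 64 had been called with all clones. The clones left out are those low in Sox2 and Nanog, so for pluripotency genes this fit is not a separate test. In that smaller fit 1067 of the 1087 probes called higher kept their sign, 576 of them at least 2-fold, and 95 of the 159 called lower stayed at least 2-fold. Of the 52 called genes with values below, 0 passed in it (smallest adjusted p = 0.0577, for Uhrf1), nor did the genes given below as past the adjusted p alone (0.133 for Ldha to 0.731 for Mbd2). Most differences of the latter genes stayed near their size. They went from -0.85 to -0.88 for Ldha, -0.73 to -0.89 for Pgk1 and -0.74 to -0.90 for Mcm6. Cbx5 went from -0.89 to -0.97 and Pcna from -0.64 to -0.63, and Mxd3 grew in size. Cbx3 shrank from -0.53 to -0.33 and Mbd2 from -0.61 to -0.23, and Dnmt1, Mdm2 and Sesn2 shrank less. With 2 4F clones, a missed threshold does not show a lost difference. Without the clones labelled 3F-OP-iPS #1 and #3, 2042 were called, 1545 of them higher (5.59%), and 1065 had been called with all clones. Of the genes called below, Gtl2, Cldn7, Gsc, Nodal, Nepn, Ssxb1 and Adprhl1 then missed the threshold (adjusted p = 0.0735, 0.0578, 0.0855, 0.0539, 0.0521, 0.0645 and 0.0531), as did Mxd3 (adjusted p = 0.0566), while Pkm2 passed (adjusted p = 0.0489). From Gtl2 to Adprhl1 the fitted differences were then 3.90, 2.01, 2.41, 2.82, -3.75, 4.18 and -1.36, with dim clones at their measured values. With all clones they were 3.84, 1.89, 2.53, 2.56, -3.61, 4.21 and -1.28. In a fit of the 10 clones alone, in which the other groups lend no estimate of the spread, 100 probes were called and 0 of the same 52 genes passed.

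**Figure D2:**
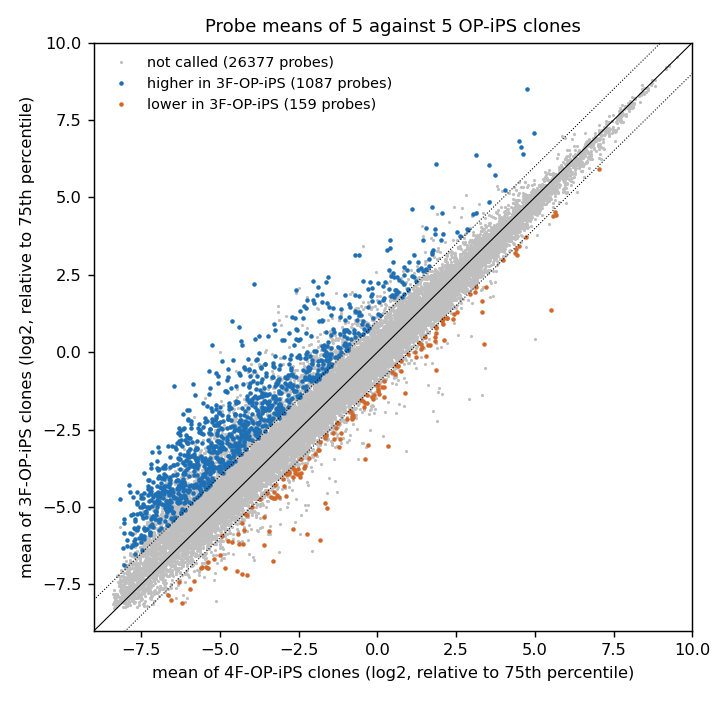
Mean log2 intensity relative to the array 75th percentile of each of 27623 tested probes in 5 4F-OP-iPS clones (x axis) and 5 3F-OP-iPS clones (y axis). The 1087 probes called higher in 3F lie mostly at low 4F means, the 159 called lower are spread over the range, grey probes were not called, the solid line marks equal means and the dotted lines 2-fold differences.

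Genes of the germ line formed the list with the most calls. Of 12 members, 9 were called higher in 3F clones: Ddx4, Dazl, Mael, Sycp3, Sycp1, Mov10l1, Taf7l, Hormad1 and Tex101. The background is the 3.94% of all probes called higher. The list's median difference was 3.69 on the log2 scale, or 3.05 with dim signals raised to the lowest measurable signal, against 0.02 over all tested probes. Asz1, Tdrd1 and Stk31 did not pass, with adjusted p of 0.157, 0.67 and 0.073. The list was composed with earlier results of these clones known and is not independent evidence of its direction. For a gene that was not well above background in some clones, the text gives "at least N-fold": the mean of the brighter group over the mean of the dimmer group, with every signal of the latter under the array's lowest measurable signal raised to it. The adjusted p beside it is limma's on the measured values.

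Ddx4 is an RNA helicase and a marker of germ cells. It read -2.30, -0.24, -0.40, 1.12 and 0.53 in 3F-OP-iPS #1 to #5. In 4F clones it was measured only in #4 (-0.10) and #5 (-1.09) and was not well above background in #1, #2 and #3. The measured 4F clones lay within the range of the 3F clones. Ddx4 was at least 11.4-fold higher in 3F as a group (adjusted p = 0.0215), and both ES arrays read 0.86 and 0.95. Dazl, an RNA-binding protein needed for germ cell development, read -2.92, -1.29, -0.27, 1.27 and -0.11 in 3F clones. It read -1.16 and -2.21 in 4F-OP-iPS #4 and #5 and was again dim in the other three, so that it was at least 11.6-fold higher in 3F (adjusted p = 0.0248).

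Sycp3, a structural protein of the synaptonemal complex that pairs chromosomes in meiosis, was the clearest member. It read -3.16, -0.79, -1.22, 0.27 and -0.30 in 3F clones. It read -2.63 and -3.51 in 4F-OP-iPS #4 and #5 and was not well above background in #1, #2 and #3. Only the clone labelled 3F-OP-iPS #1 fell into the range of the 4F clones. Sycp3 was at least 13.2-fold higher in 3F (adjusted p = 0.00292). Sycp1, its partner in the same complex, was at least 4.29-fold higher (adjusted p = 0.0288), with 4 of 5 3F clones and 2 of 5 4F clones above background. Hormad1, which marks unpaired meiotic chromosomes, was at least 6.06-fold higher (adjusted p = 0.028), with 5 and 2 clones above background.

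Taf7l and Tex101 were measured in all 10 clones. Taf7l, a germ cell form of a subunit of the general transcription factor TFIID, read -1.79, 0.78, 0.45, 1.55 and 1.21 in 3F clones and -2.11, -3.95, -3.27, -1.43 and -2.08 in 4F clones. Apart from the clone labelled 3F-OP-iPS #1, all 3F clones lay above all 4F clones. The difference was 3.01 ± 0.61 (adjusted p = 0.00435). Tex101, a surface protein of germ cells, read -1.58, 1.24, 1.00, 3.97 and 2.50 in 3F clones and -4.08, -1.43, -3.66, -1.0 and -1.22 in 4F clones, again with the clone labelled 3F-OP-iPS #1 as the 1 that overlapped. The difference was 3.70 ± 1.00 (adjusted p = 0.0233). Both ES arrays were below the 3F mean for both genes, at -2.19 and -3.63 for Taf7l and -3.18 and -2.03 for Tex101.

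Mov10l1 and Mael belong to the piRNA pathway, which silences transposons in germ cells. Mov10l1, an RNA helicase, was at least 8.46-fold higher in 3F (adjusted p = 0.00771), measured in 5 3F and 2 4F clones. Mael was at least 15.3-fold higher (adjusted p = 0.0303). It read -1.55 to 1.75 in 3F clones, 0.50 in 4F-OP-iPS #4, -0.84 in #5 and -5.33 in #2. Without 4F-OP-iPS #1, #2 and #3, 0 of the 12 germline genes were called and the list's median was 1.29. Without the clones labelled 3F-OP-iPS #1 and #3, 10 were called and the median was 4.59.

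**Figure D3:**
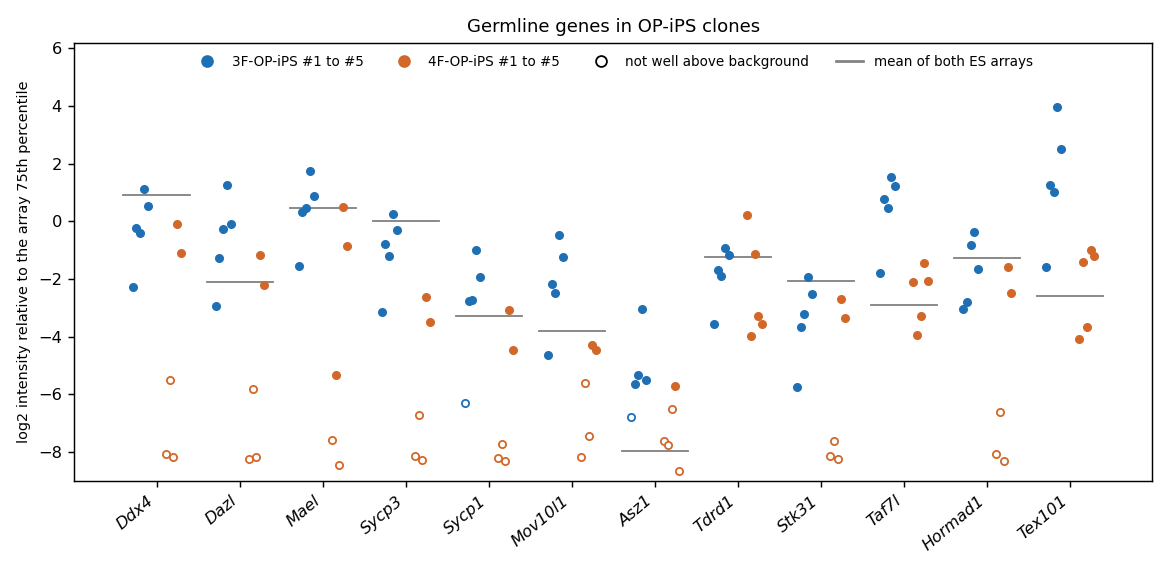
Log2 intensity relative to the array 75th percentile (y axis) of 12 germline genes in 3F-OP-iPS and 4F-OP-iPS clones, placed from #1 to #5 within each colour; open circles were not well above background and grey lines are the mean of both ES arrays. For Ddx4, Dazl, Sycp3, Sycp1, Mov10l1, Stk31 and Hormad1 the 4F clones #1, #2 and #3 are open, while #4 and #5 are measured.

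Promoters of the germline genes were compared because their differences ran together. RefSeq promoter windows (GRCm38.p6, 250 bases before to 50 after the start) matched 12 of 12 genes. The E-box CACGTG, which reads the same on both strands, was in at least 1 window of 9 of 12 genes (75%), against 7.15% of 32851 windows and 11.3% of the 11378 windows with at least 15 CpG. The sequence GCGGGAA, searched on both strands, was in 3 of 12 (25%), against 4.60% and 10.3%. A gene with several starts had several windows, which the share of single windows does not allow for. The median CpG count was 22.5 in windows of the list and 7 in all windows. The 120 bases before the start are shown for Sycp3, Hormad1 and Taf7l, members with an E-box, and for Dazl, a member without one in its window. Capitals mark CACGTG, and each sequence is given on the strand of its gene.
Sycp3, chr10:88459467-88459586, plus strand: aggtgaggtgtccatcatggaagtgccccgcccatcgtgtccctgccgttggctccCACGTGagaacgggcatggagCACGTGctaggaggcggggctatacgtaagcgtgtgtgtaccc
Hormad1, chr3:95559557-95559676, plus strand: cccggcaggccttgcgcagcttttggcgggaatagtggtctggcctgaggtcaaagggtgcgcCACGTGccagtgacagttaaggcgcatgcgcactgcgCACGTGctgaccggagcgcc
Taf7l, chrX:134476491-134476610, minus strand: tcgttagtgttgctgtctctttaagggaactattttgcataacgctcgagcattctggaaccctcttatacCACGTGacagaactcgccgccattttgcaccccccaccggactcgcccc
Dazl, chr17:50293621-50293740, minus strand: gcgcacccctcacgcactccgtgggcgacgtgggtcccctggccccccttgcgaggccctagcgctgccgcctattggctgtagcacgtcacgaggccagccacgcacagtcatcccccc
Asz1 and Tex101 also had no CACGTG in their windows, and Tex101 and Dazl were called while Asz1 was not. Tdrd1 and Stk31 had a CACGTG in at least 1 window and were not called. A match is a run of letters in a window, and binding was not measured.

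Genes of the two-cell stage were called higher with a similar split among 4F clones. Of 4 tested members, 3 were called (background 3.94%): Zscan4c, a telomere regulator listed on the array as Gm397, and Tcstv1 and Tcstv3, which are expressed in two-cell embryos. The list's median difference was 3.78. Zscan4c read -1.47, 3.73, 0.87, 3.45 and 3.99 in 3F clones and -4.39, -3.56, -4.83, 2.00 and 1.30 in 4F clones. Clones 4F-OP-iPS #1, #2 and #3 were below every 3F clone, and #4 and #5 lay between the 3F clones. The difference was 4.01 ± 1.26 (adjusted p = 0.0469). Tcstv1 and Tcstv3 differed by 4.00 ± 1.13 (adjusted p = 0.0296) and 3.57 ± 1.05 (adjusted p = 0.0351). Zscan4 and Tcstv genes are families of near-identical copies, so a probe may read several. None of the 3 passed without 4F-OP-iPS #1, #2 and #3, with adjusted p of 0.94, 0.89 and 0.926.

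Of the core pluripotency factors, 0 of 9 were called (3.94% of all probes were called higher). Their median difference was 0.93 with all clones and -0.74 without 4F-OP-iPS #1, #2 and #3. Those clones are the ones low in Sox2 and Nanog, members of this list. Leaving them out lowers such differences by construction, so the second median is not a separate test. Sox2 read 0.47, 1.45, 2.26, 2.86 and 2.52 in 3F clones. In 4F clones it read -2.04 in #2, 3.14 in #4 and 2.24 in #5, and #1 and #3 were not well above background. The 3F clones lay close together, while the 4F clones included both the highest and the lowest values, and the test was not passed (at least 12.7-fold between group means, adjusted p = 0.0672). Nanog, whose reporter was used to pick the clones, was measured in all 3F clones (0.76 to 2.96) and in 4F-OP-iPS #2 (-3.30), #4 (3.33) and #5 (1.83). It did not pass either (at least 17.4-fold between group means, adjusted p = 0.0549). Esrrb, Dppa3 and Dppa4 had the same 2 dim clones, #1 and #3, and adjusted p of 0.0741, 0.0618 and 0.0745.

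Other genes of the naive state and ES cell markers passed. Tbx3, a T-box factor of the naive network, read 2.23, 3.91, 3.94, 3.85 and 4.28 in 3F clones and 0.01, 1.05, 0.54, 3.85 and 1.87 in 4F clones. Only 4F-OP-iPS #4 reached the level of most 3F clones, and the difference was 2.18 ± 0.55 (adjusted p = 0.017). Zfp42, also called Rex1 and a marker of undifferentiated ES cells, read 0.19 to 2.61 in 3F clones and -2.60, -1.81, -2.19, 2.22 and 1.49 in 4F clones, with a difference of 2.41 ± 0.72 (adjusted p = 0.0382). All 10 clones lay below both ES arrays (7.07 and 6.68). Dppa5a, also called Esg1, read 7.60 to 8.79 in 3F clones and 0.08, 4.05, 2.46, 8.86 and 8.26 in 4F clones, with a difference of 3.76 ± 1.08 (adjusted p = 0.0311). Tbx3 and Zfp42 were 2 of 12 naive genes, and Zfp42 and Dppa5a 2 of 14 ES markers, with list medians of 1.61 and 1.78 (background 3.94%). Without 4F-OP-iPS #1, #2 and #3 none of these genes passed, the list medians turned to -0.19 and -0.72, and Zfp42 and Dppa5a differed by -0.03 and -0.05. Since those clones are the ones low in Sox2 and Nanog, these values are not a separate test either.

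**Figure D4:**
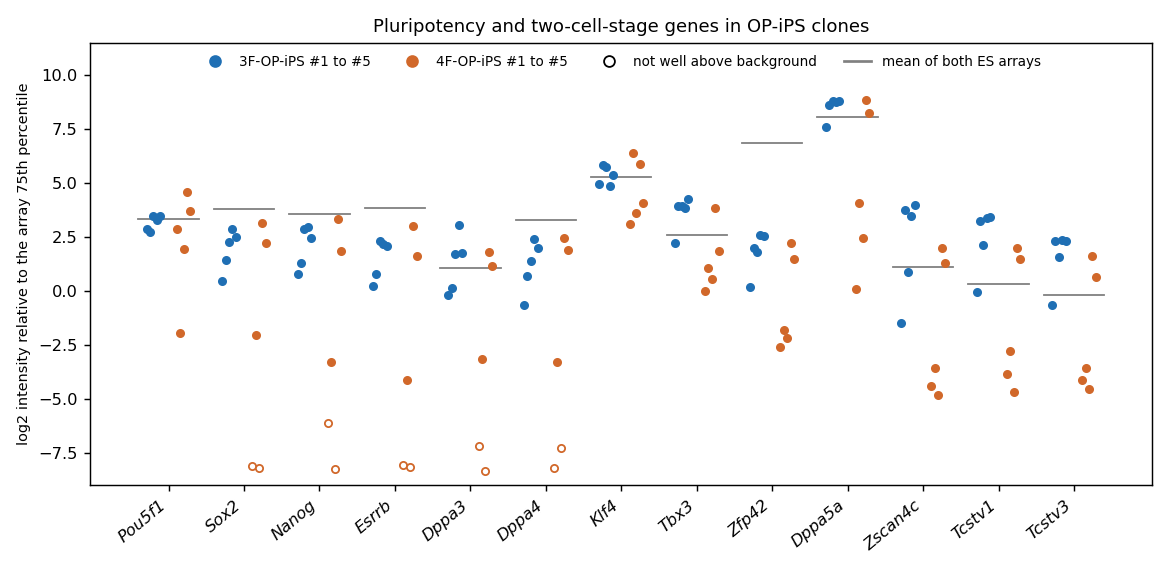
Log2 intensity relative to the array 75th percentile (y axis) of pluripotency and two-cell-stage genes in 3F-OP-iPS and 4F-OP-iPS clones, placed from #1 to #5 within each colour; open circles were not well above background and grey lines are the mean of both ES arrays. Sox2, Nanog, Esrrb, Dppa3 and Dppa4 are dim in 4F-OP-iPS #1 and #3, low in #2 and within or near the 3F range in #4 and #5.

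Uhrf1 and Dnmt1, which act in copying DNA methylation, were lower in 3F by about 2-fold. Of 9 DNA methylation genes, Uhrf1 was called lower (0.576% of all probes were), and Dnmt1 and Mbd2 passed the adjusted p without a 2-fold difference (3.27% of all probes did in that direction). Uhrf1, which recruits the maintenance enzyme to newly copied DNA, read 1.87, 1.58, 1.80, 2.14 and 2.03 in 3F clones and 3.36, 2.52, 2.65, 3.44 and 2.71 in 4F clones. The groups did not overlap, and the difference was -1.05 ± 0.21 (adjusted p = 0.00435). Dnmt1, the maintenance methyltransferase itself, read 1.04, 1.91, 2.06, 1.98 and 1.75 against 3.01, 2.50, 2.52, 2.83 and 2.39. Its groups did not overlap either, with a difference of -0.90 ± 0.19 (adjusted p = 0.00509). Mbd2, which binds methylated DNA, differed by -0.61 ± 0.17 (adjusted p = 0.0291) with overlapping groups. Its other probe, above background in 1 3F and 4 4F clones, passed as well (adjusted p = 0.0374). Both ES arrays read above every 3F clone for Uhrf1 (4.91 and 4.32) and Dnmt1 (3.59 and 2.76). Without 4F-OP-iPS #1, #2 and #3, the differences were -1.19 for Uhrf1 and -0.86 for Dnmt1 (adjusted p = 0.0577 and 0.154).

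Factors that silence retroviruses held 2 of 13 members that passed the adjusted p, both heterochromatin proteins that bind methylated histone H3. Cbx5 differed by -0.89 ± 0.23 (adjusted p = 0.0186) and Cbx3 by -0.53 ± 0.13 (adjusted p = 0.0176). Cbx5 read -0.20 to 0.53 in 3F clones and 0.70 to 1.24 in 4F clones, without overlap. Its other probes differed by only -0.28 and -0.22 and did not pass. The list's median was -0.43, and 11 of 13 differences were below 0. Over all tested probes 48.6% of differences were below 0, and 3.27% passed the adjusted p in that direction.

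Replication and mitosis genes all had differences below 0, 18 of 18, with a median of -0.45, but 0 were called. Pcna and Mcm6 passed the adjusted p, 2 of 18 against 3.27% of all probes, of which 48.6% had differences below 0. Pcna, the sliding clamp of DNA polymerase, read 4.35 to 4.49 in 3F clones and 4.72 to 5.38 in 4F clones. The groups did not overlap, and the difference was -0.64 ± 0.16 (adjusted p = 0.0135). Mcm6, part of the replicative helicase, differed by -0.74 ± 0.20 (adjusted p = 0.0212), with 3F clones at 5.05 to 5.74 and 4F clones at 5.73 to 6.83. ES cells read 6.22 and 6.16 for Pcna, above all 10 clones. The other 16 members did not pass.

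Among 25 c-Myc target genes of growth and ribosome production, 0 were called and Ldha passed the adjusted p. The list's median was -0.35, with 21 differences below 0. A share of 1 in 25 is near the 3.27% of all probes that passed in that direction. Ldha, lactate dehydrogenase, is also 1 of 10 glycolysis genes, of which Ldha and Pgk1 passed the adjusted p and 9 had differences below 0, with a median of -0.62, against the same 3.27% and 48.6% of all probes. Ldha read 6.53, 6.13, 6.14, 5.97 and 6.39 in 3F clones and 7.30, 6.73, 7.17, 7.06 and 7.17 in 4F clones. Every 3F clone lay below every 4F clone, with a difference of -0.85 ± 0.18 (adjusted p = 0.00597). The other Ldha probe, not the brightest and so outside the list's count, was called lower (log2 difference -1.14 ± 0.23, adjusted p = 0.00396). Pgk1, phosphoglycerate kinase, differed by -0.73 ± 0.19 (adjusted p = 0.018), also without overlap. Pkm2, the pyruvate kinase isoform of dividing cells, had a difference of -0.84 ± 0.29 and did not pass (adjusted p = 0.0644), with 4F-OP-iPS #2 at 4.88 and the other 4F clones at 6.18 to 6.34. A second probe of this gene, under the current symbol Pkm, was called lower (log2 difference -1.16 ± 0.29, adjusted p = 0.0165).

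Within the Myc family itself, 0 of 11 genes were called and Mxd3 passed the adjusted p in the lower direction (0.576% of all probes were called lower and 3.27% passed the adjusted p). Mxd3, which competes with c-Myc for their partner Max, read -1.76 to -1.30 in 3F clones and -1.18 to 0.41 in 4F clones, with a difference of -0.92 ± 0.25 (adjusted p = 0.0239). Among 12 genes of the p53 and Ink4a/Arf pathway, 0 were called and Mdm2 and Sesn2, both targets of p53, passed the adjusted p in the higher direction, for which the background is 4.83%. Mdm2, the ligase that limits p53, read 2.65, 3.22, 3.09, 3.80 and 3.42 in 3F clones and 2.17, 2.47, 2.36, 2.35 and 2.50 in 4F clones. Its groups did not overlap, and the difference was 0.87 ± 0.17 (adjusted p = 0.00396). Sesn2, a stress-response gene, differed by 0.96 ± 0.30 (adjusted p = 0.044), also without overlap. Without 4F-OP-iPS #1, #2 and #3 neither passed (adjusted p = 0.153 for Mdm2 and 0.464 for Sesn2), with differences of 0.81 and 0.82. Without the clones labelled 3F-OP-iPS #1 and #3, 3 of the 12 were called higher (5.59% of all probes were in that fit), among them Mdm2 (log2 difference 1.11, adjusted p = 0.000579) and the p53 target Ccng1 (log2 difference 1.04, adjusted p = 0.00819), which with all clones had differed by 0.59 ± 0.25 (adjusted p = 0.145) and whose other probe differed by 0.05.

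**Figure D5:**
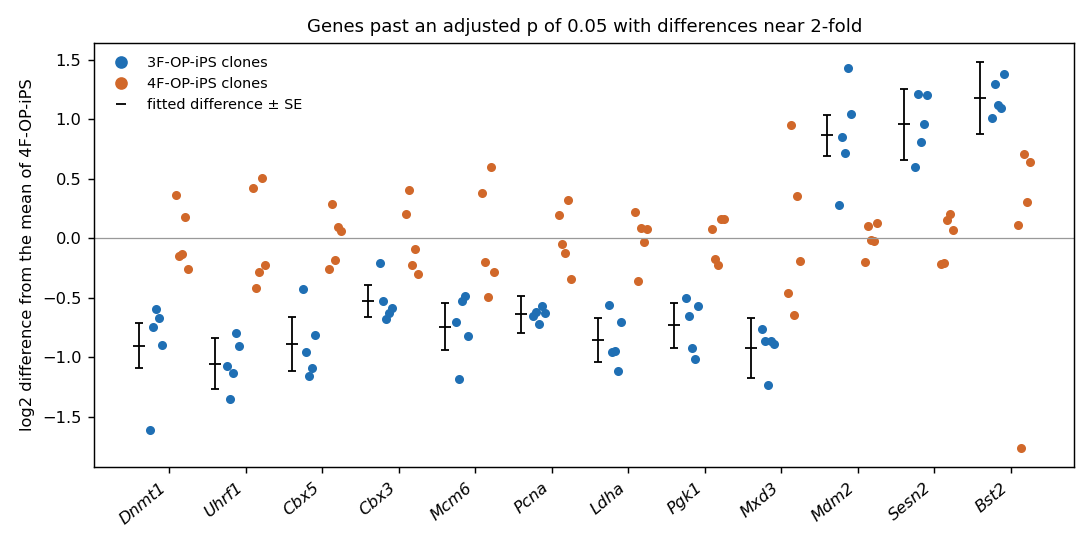
Log2 difference of each clone from the mean of the 5 4F-OP-iPS clones (y axis) for 12 genes past an adjusted p of 0.05, with 3F-OP-iPS in blue and 4F-OP-iPS in orange; horizontal marks with bars are the fitted difference ± SE. Dnmt1, Uhrf1, Cbx5, Pcna, Ldha, Pgk1 and Mxd3 lie below the 4F clones and Mdm2, Sesn2 and Bst2 above them without overlap, whereas Cbx3 and Mcm6 overlap.

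The largest decreases in 3F included genes whose order over clones resembled the c-Myc coding probe. The likeness was seen in these named genes and was not tested, nor was a part of c-Myc in it. Slc38a5, a glutamine transporter, read 6.36, -1.07, 4.14, -1.73 and -0.93 in 3F clones and 8.32, 2.64, 7.43, 3.49 and 5.68 in 4F clones. The clones labelled 3F-OP-iPS #1 and #3 lay within the range of the 4F clones, and all other 3F clones lay below every 4F clone. The difference was -4.16 ± 1.25 (adjusted p = 0.0384). The Serpinb3 genes, protease inhibitors with near-identical sequences that probes may not tell apart, showed a like order. Serpinb3c read -2.18, -5.07, -1.41, -4.38 and -4.21 in 3F clones and 0.07, -3.83, 2.08, -1.64 and 1.28 in 4F clones, with a difference of -3.04 ± 0.89 (adjusted p = 0.0335). Serpinb3b and Serpinb3a, dim in 3F-OP-iPS #2, #4 and #5 and in 4F-OP-iPS #2, were at least 7.71-fold and 4.46-fold lower in 3F (adjusted p = 0.0408 and 0.0372).

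Ankrd37 was the named decrease with the smallest adjusted p. It is known as a gene induced by low oxygen. It read 1.90, -0.06, 0.42, -0.70 and -0.19 in 3F clones and 4.80, 2.21, 3.98, 2.75 and 3.24 in 4F clones. Every 3F clone lay below every 4F clone, by -3.12 ± 0.51 (adjusted p = 0.000746). Egln3, another gene known to respond to low oxygen and one chosen after its values were seen, differed by -1.67 ± 0.53 (adjusted p = 0.0473) with overlapping groups.

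The other large decreases were in genes of varied roles. Depp1, a regulator of autophagy, was measured in all clones and differed by -3.38 ± 0.99 (adjusted p = 0.0349). Slc6a2, the noradrenaline transporter, was at least 7.52-fold lower in 3F (adjusted p = 0.0408). Lower levels were also called for Nepn, a leucine-rich matrix protein (at least 9.19-fold, adjusted p = 0.0353), and for Gcnt3, a glycosyltransferase of mucins (at least 8.64-fold, adjusted p = 0.0492). These genes were above background in every 4F clone and in 2 or 3 of the 5 3F clones. Otop1, a proton channel measured in 1 3F and 3 4F clones, fell at least 2.47-fold (adjusted p = 0.0444), and Nalp6, an innate immune sensor, fell at least 3.86-fold (adjusted p = 0.0427). Sdk2, an adhesion protein, differed by -2.71 ± 0.85 (adjusted p = 0.0472), but its other probe differed by 0.51.

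Of the 12 largest increases, Sycp3, Mael, Dazl and Ddx4 were described with the germline genes. Itga11, a collagen receptor of mesenchymal cells, read -1.75, 4.78, 1.19, 2.83 and 3.93 in 3F clones. It read -3.99, -2.44 and -0.03 in 4F-OP-iPS #2, #4 and #5 and was not well above background in #1 and #3, so that it was at least 60.6-fold higher in 3F (adjusted p = 0.0041). Ecrg4, a secreted growth regulator, read -1.35 to 1.97 in 3F clones and at most -2.32 in 4F clones, without overlap, and was at least 39.1-fold higher (adjusted p = 0.0153). Otor, a secreted protein of cartilage and inner ear, was at least 17-fold higher (adjusted p = 0.00534). The array of primary OP cells read 6.33, 7.18 and 1.98 for these 3 genes, which is above every clone. This was not general among the increases, since 28.2% of the probes called higher in 3F were brighter in primary OP cells than in both group means, against 41.8% of all tested probes.

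Among the remaining large increases, Fkbp6 and Syce1 act in meiotic chromosome pairing, and Cyct is the testis form of cytochrome c. They were at least 22.7-fold, 13.3-fold and 19.3-fold higher in 3F (adjusted p = 0.0131, 0.0296 and 0.0407). Ttll6, an enzyme that modifies tubulin of cilia, was at least 8.88-fold higher (adjusted p = 0.0058), and Ssxb1, from an X-linked family of near-identical genes, at least 8.81-fold higher (adjusted p = 0.0358). In all of these 4F-OP-iPS #1 and #3 were not well above background, and #2 was dim as well for Fkbp6, Ttll6 and Ssxb1.

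Markers of fibroblasts and mesenchyme, which feeders or incompletely reprogrammed cells would bring, were examined as a whole list. Of 20 members 3 were called higher (background 3.94%), namely the contractile genes Acta2 and Tagln and the collagen Col5a1, and 15 differences were above 0, with a median of 1.18. The summed level of the list ran from 7.73 to 9.67 in 3F clones, from 7.36 to 8.70 in 4F clones and from 5.36 to 7.93 on the ES arrays, and was 10.9 in primary OP cells. Acta2, smooth muscle actin, read 4.38, 7.75, 5.26, 7.12 and 7.37 in 3F clones and 1.53, 1.46, 2.26, 5.17 and 5.27 in 4F clones. The lower 3F clones, labelled #1 and #3, lay at or below 4F-OP-iPS #5, and the difference was 3.24 ± 0.82 (adjusted p = 0.0169). Tagln, an actin-binding protein of the same cells, differed by 2.52 ± 0.70 (adjusted p = 0.0274), and Col5a1 by 1.63 ± 0.52 (adjusted p = 0.0492). Dcn and Pdgfra, also markers of fibroblasts, had differences of 0.41 and -0.44 and did not pass (adjusted p = 0.807 and 0.73). Without the clones labelled 3F-OP-iPS #1 and #3, 9 of 20 were called higher (5.59% of all probes were), and without 4F-OP-iPS #1, #2 and #3, 0 were (0.177% of all probes). In such mixtures more cells of a type and more RNA per cell cannot be told apart, and the part of these cells in the other results was not tested.

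Bone genes were checked because OP cells come from bone marrow. Of 8 tested, 1 was called higher (background 3.94%), Bglap, which encodes osteocalcin. It read -1.98, -1.22, -1.32, -1.26 and -1.29 in 3F clones and -3.48, -4.01, -3.59, -2.13 and -2.98 in 4F clones. The groups did not overlap, with a difference of 1.83 ± 0.39 (adjusted p = 0.00666), and primary OP cells read 4.25. Blood cell genes gave 0 of 4, and the defining markers Ptprc (CD45) and Itgam were not well above background on every array of any group. Endothelial (0 of 6), primitive endoderm (0 of 10) and neural genes (0 of 7) gave no call. Their median differences were 0.60, -0.21 and -0.04, and -0.61, 0.68 and -0.12 without 4F-OP-iPS #1, #2 and #3.

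Imprinted genes of the Dlk1-Dio3 region gave 1 call of 5 (background 3.94%). Gtl2, its non-coding RNA, read 2.97, 3.90, 3.13, 2.95 and 2.76 in 3F clones. It read -0.29, 0.39, 2.28 and 1.71 in 4F-OP-iPS #1, #3, #4 and #5 and was not well above background in #2. No 4F clone reached a 3F clone, Gtl2 was at least 10.8-fold higher in 3F (adjusted p = 0.0424), and both ES arrays read 5.12 and 4.67, above all clones. Of 4 other Gtl2 probes tested, 2 were called in the same direction, and the 4 had differences from 1.43 to 3.61. Rian, the next non-coding RNA of the region, was also dim in 4F-OP-iPS #2 alone and did not pass (adjusted p = 0.222). Other imprinted genes gave 0 of 16. Igf2 and H19, neighbours with opposite imprints, read 4.87 to 5.35 and 5.28 to 6.03 in 3F-OP-iPS #2 to #5 but 0.33 and 2.57 in the clone labelled #1. They were also low in 4F-OP-iPS #1 and #3, and did not pass (adjusted p = 0.175 and 0.145).

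For the next lists the background is again the 3.94% of probes called higher. Epithelial genes gave 2 calls of 11, the tight-junction claudins Cldn6 and Cldn7. Cldn6 read 0.28 to 1.87 in 3F clones and -2.06 to -0.14 in 4F clones, without overlap, with a difference of 2.05 ± 0.53 (adjusted p = 0.0186). Cldn7 differed by 1.89 ± 0.57 (adjusted p = 0.0407) with overlap. Of 10 genes of the primed epiblast and primitive streak, Gsc, at least 3.33-fold higher in 3F, and Nodal, with a difference of 2.56 ± 0.80, were called (adjusted p = 0.0423 and 0.0451). Nodal, a secreted signal of the TGF-beta family, read 1.18 to 2.64 in 3F clones and -3.77, -2.96, -0.19, 2.00 and 1.40 in 4F clones. Of 8 interferon genes 1 was called, Bst2, which tethers viruses at the cell surface. It read 5.07 to 5.43 in 3F clones and 2.29 to 4.76 in 4F clones, without overlap, with a difference of 1.18 ± 0.30 (adjusted p = 0.0182).

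Likeness to ES cells did not separate the groups. The squared correlation with the mean of both ES arrays was 0.875 ± 0.00636 (SD, n = 5) in 3F clones and 0.865 ± 0.0343 (SD, n = 5) in 4F clones, with a difference of 0.0107 (exact permutation p = 0.532, two-sided; the smallest p this design allows is 0.00794). The 4F clones held both the lowest value, 0.825 in #2, and the highest, 0.912 in #4, while 3F clones ran from 0.869 to 0.883. The mean distance between clones of a group, as root mean square log2 difference over tested probes, was 0.892 among 3F and 1.24 among 4F clones. This difference of -0.349 did not pass (exact permutation p = 0.143). Of the 1087 probes called higher in 3F, 48.0% were nearer to the 3F mean than to the 4F mean on the ES arrays, against 48.3% of all tested probes. Of the 159 called lower, 35.2% were.

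The same factor comparison was made in clones from the other cell sources, PaS cells of bone marrow and tail tip fibroblasts (TTF), with 5 clones a group. In PaS clones 5 probes were called, 2 of them higher in 3F (0.00724%), and none was among the OP calls in the same direction. In TTF clones 1595 were called, 1096 of them higher in 3F (3.97%). Both comparisons called 537 probes higher, 49.4% of the OP calls and 49.0% of the TTF calls. Both called 72 probes lower, 45.3% of the OP calls and 14.4% of the TTF calls. Of the probes called higher in OP, 98.1% were also above 0 in TTF, where 53.4% of all tested probes were, and 52.6% were above 0 in PaS, where 50.2% of all were. The 3 comparisons share no clones, but they come from 1 fit with a shared spread per probe. Arrays of 3F-OP clones also shared slides with arrays of 3F-TTF and 3F-PaS clones, and arrays of 4F-OP clones with those of 4F-PaS clones.

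Values of the members are given side by side for each source. Of the 12 germline genes 8 were called higher in TTF, with a median of 3.22, and 0 in PaS, with a median of 0.05. The test of the difference between OP and PaS was passed by 0 of the 12, with Sycp3 nearest (adjusted p = 0.0648). Sycp3 differed by 3.96 in TTF (adjusted p = 0.00759) and 0.07 in PaS (adjusted p = 0.977). Ankrd37 differed by -2.93 in TTF (adjusted p = 0.00113) and -0.03 in PaS (adjusted p = 0.982). Slc38a5 differed by -5.93 in TTF (adjusted p = 0.00434) and -1.22 in PaS (adjusted p = 0.648), and the c-Myc coding probe by -3.65 in TTF (adjusted p = 0.0176) and -1.35 in PaS (adjusted p = 0.483). For neither was a difference between OP and PaS passed (adjusted p = 0.367 and 0.722). Cldn6 and Cldn7, called in OP, differed by 0.06 and -0.28 in TTF and did not pass there, nor did they pass the test of OP against TTF (adjusted p = 1.0 for both).

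A test of the difference between sources was passed by 179 probes (0.648%) for OP against PaS, 129 of them with a larger difference in OP toward 3F and 50 toward 4F. Of the 179, 123 were also called in OP. The count ran from 45 without the clone labelled 3F-OP-iPS #5 to 1775 without 4F-OP-iPS #4, and was 9 without 4F-OP-iPS #1, #2 and #3. For OP against TTF 0 probes passed (0.00%), with 1028 at an unadjusted p under 0.05 by limma, and leaving out 4F-OP-iPS #5 gave 3. Among the named genes of the OP against PaS test, Lct, an intestinal disaccharidase, had the smallest adjusted p. It read -3.58, -3.51, -2.89, -2.23 and -3.01 in 3F-OP clones and -4.04 in 4F-OP-iPS #4, the only 4F-OP clone above background. It was at least 5.79-fold higher in 3F in OP and differed by -1.03 (log2) in PaS, and the test of the difference between sources gave an adjusted p of 0.00645, with the dim OP clones at their measured values. Ankrd37 changed by 3.09 log2 units more toward 4F in OP than in PaS (difference between sources -3.09 ± 0.72, adjusted p = 0.0421).

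Ttll6, Cox6a2 and Efhc2 were higher in 3F in OP and had differences below 0 in PaS that did not pass, and all passed the test of the difference between sources (adjusted p = 0.048, 0.0395 and 0.0479). The difference between sources was 4.78 ± 1.08 for Cox6a2 and 4.61 ± 1.1 for Efhc2, while Ttll6, dim in 4F-OP-iPS #1, #2 and #3, has only the bound given above for OP. Cox6a2, a muscle subunit of cytochrome c oxidase, read -3.51 to -0.11 in 3F-OP and -5.29 to -3.69 in 4F-OP clones, without overlap. Depp1, St3gal6, a sialyltransferase, and Adprhl1 ran the other way, lower in 3F in OP and with differences above 0 in PaS that did not pass. All passed the test of the difference between sources (adjusted p = 0.0327, 0.0484 and 0.0421). The difference was -3.47 ± 0.83 for St3gal6 and -2.35 ± 0.54 for Adprhl1, while Depp1, with 1 of 5 4F-PaS clones not well above background, has no exact size. Tbx3 and Bglap, described above, also passed this test. They differed by -1.04 and -0.58 in PaS and did not pass there (adjusted p = 0.33 and 0.452), and the difference between sources was 3.22 ± 0.78 for Tbx3 and 2.41 ± 0.55 for Bglap (adjusted p = 0.0484 and 0.0409).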

How the data were processed

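Labelled (Cy3) RNA of each sample had been hybridised to 1 Agilent mouse array, and the deposited scanner files give each probe's processed signal intensity, background-subtracted by the scanner software. The authors' series table holds log2 values, each probe centred on its median, and was used as an alternative (correlation with the scanner values, centred in the same way, at least 0.99997 per array). The authors normalised and compared arrays in GeneSpring GX. Depth does not apply to arrays, whose number limits the precision.

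From the 41174 gene probes, log2 intensity minus the array's 75th percentile was taken, replicate spots of a probe were averaged and outlier spots left out. limma 3.58.1 (R 4.3.3) was fitted to 30 clones in 6 groups and both ES arrays as a seventh group, over the 27623 probes for which all arrays of 1 group or more were well above background, with Benjamini-Hochberg adjustment and calls at an adjusted p of 0.05 and 2-fold. Exact permutation tests (scipy 1.17.1) were two-sided. The pipeline, tested on simulated data for this comparison, recovered 82% of 200 changed probes among 27623 with 5 false calls. The simulated noise was normal, independent between arrays and of 1 spread per probe in all groups, with changes of 1.5 to 3 log2 units. The OP clones differ between groups in spread and in slide, so these rates need not hold for them. Current symbols came from RefSeq accessions, which matched 22944 probes, and old array names were kept otherwise.

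The members, gene lists and tests were chosen with earlier results of these data known. Named were the 12 largest called changes of named genes in each direction, called list members or up to 4 with the largest difference, the factor genes, and the 4 largest called differences between sources in each direction, by the probe with the highest mean. List members passing the adjusted p alone, and Nanog, Esrrb, Dppa3, Dppa4, Rian, Egln3, Ccng1, Dcn, Pdgfra, Asz1, Tdrd1, Stk31 and the blood markers, were named after their values were seen. Some genes that the rule names are not described. Alternatives changed the background correction, normalization, filter, weights, slide block, pairing and clones. The clone numbers did not pair the groups.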

Additional observations from a re-analysis of the deposited data

Results flagged for a closer look

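Among 126 groups of 5 clones checked for a clone far from the other four, 10 held one, where chance gives about 1 in 20. The clone labelled 3F-OP-iPS #1 was the distant clone for Tbx3 (2.23, others 3.85 to 4.28), Dppa5a (7.60, others 8.61 to 8.79), Tcstv3 (-0.63, others 1.55 to 2.34), Igf2 (0.33, others 4.87 to 5.35), H19 (2.57, others 5.28 to 6.03) and Bglap (-1.98, others -1.32 to -1.22), on the log2 scale. The clone labelled 3F-OP-iPS #3 was distant for Mxd3 (-1.76, others -1.42 to -1.30). Clone 4F-OP-iPS #2 was distant for Cldn6 (-2.06, others -0.55 to -0.14), Pkm2 (4.88, others 6.18 to 6.34) and Bst2 (2.29, others 4.16 to 4.76). In the same clones the c-Myc coding probe read 1.66 (labelled 3F #1), 0.59 (labelled 3F #3) and -2.53 (4F #2). The part of c-Myc in these values was not tested.

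For 10 of the named genes the 3F minus 4F change differed between OP and PaS clones by limma's interaction test. The fitted difference between sources was 4.78 for Cox6a2 and 4.61 for Efhc2. It was 5.49 for Ttll6 and 4.50 for Lct, which are not exact sizes because 3 and 4 of the 5 4F-OP clones were not well above background and entered at their measured values. In the other direction the difference between sources was -6.43 for Depp1 (1 of 5 4F-PaS clones not well above background, so not exact either), -3.47 for St3gal6, -3.09 for Ankrd37 and -2.35 for Adprhl1, in log2 units. These 8 are the 4 largest differences of named genes in each direction among 179 probes that passed. Tbx3 and Bglap, named for their lists, passed as well, with differences between sources of 3.22 and 2.41.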

How the results depend on the processing

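Slide and factor set cannot be told apart, and dim signals limit what can be said of 4F-OP-iPS #1 to #3. The 1246 calls became 364 with a weight per group of arrays, 336 with normexp, 624 over probes above background on all 10 arrays, 100 in a fit of the 10 clones alone, 168 with slide as a random block (64 among the 10 clones alone) and 2237 with no fold minimum. Without 4F-OP-iPS #1 and #3 there were 186, without #1, #2 and #3 64, and without the clones labelled 3F-OP-iPS #1 and #3 2042. Leaving out 1 clone gave 457 (without 4F #1) to 2270 (without 4F #4). Other counts beyond 1.5-fold were 1904, 778, 579 and 591 without the clones labelled 3F #1, #2, #4 and #5, and 663 without 4F #3. The causes were not tested.

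Same-numbered clones deviated together in 4 of 5 pairs (correlations 0.335, 0.351, 0.197, 0.425 and -0.0442), and 6 of 10 clones correlated best with their own number, which does not make pairs. With clone number as a replicate block, 318 probes were called over the 10 clones (100 without it) and 1528 over all clones (1246 without it), so the block raised the count in both forms. For R2, the replicate block gave an exact sign-flip p of 0.5.

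The 179 differences between OP and PaS became 37 with weights, 96 with no filter, 288 with normexp, 97 over probes above background on all OP arrays, 391 with the replicate block, 630 without the clones labelled 3F #1 and #3, 9 without 4F #1, #2 and #3, and 45 (without 3F #5) to 1775 (without 4F #4) with 1 clone left out. For OP against TTF, leaving out 1 clone gave 0 to 3, and other settings 0. The difference in R2 was -0.0233 without 4F #1, #2 and #3 (exact permutation p = 0.0952) and 0.000650 to 0.0226 with 1 clone left out. The difference in distance between clones was 0.0150 without 4F #1, #2 and #3, -0.613 without the clones labelled 3F #1 and #3, which were the farthest from the others of their group, so that leaving them out lowers the 3F distance by construction, and -0.468 to -0.185 with 1 clone left out.

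Without 4F #1, #2 and #3, differences turned to -0.52 for Nanog, -0.78 for Sox2, -0.0279 for Zfp42, -0.0545 for Dppa5a, -0.98 for Pou5f1 (-0.12 without 4F #2 alone), -0.79 for Esrrb, -0.98 for Dppa4 and -0.18 for Dppa3. Those clones are the ones low in Sox2 and Nanog, so this turn follows in part from their choice. The downstream c-Myc probe turned to -0.00299, -0.0613 and -0.0138 without 3F #2, 4F #1 and 4F #5, within a range of -0.0613 to 0.318 with 1 clone left out. Of 52 named genes that were called, 52 kept the call in the authors' table, 49 with dim signals raised to a floor, 47 with quantile normalization, 45 without the clones labelled 3F #1 and #3, 22 with normexp, 0 in the fit of the 10 clones alone and 8 in that fit with the replicate block, 0 without 4F #1, #2 and #3, and 12 to 51 with 1 clone left out.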
